A study of Mus musculus with 21 samples.

Results

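The killer lectin receptors studied here are 10 genes chosen by name from the 51201 genes of the deposited tables. They were divided by class into 7 receptors that T cells share with natural killer (NK) cells (Klrc1, Klrc2, Klrd1, Klrk1, Klrg1, Klre1 and Klri2) and 3 taken as NK-restricted (Klrb1c, Klra8 and Ncr1). Polyadenylated RNA of spleen T cells was sequenced from C57BL/6J mice at postnatal day 35, with each library labelled as its own mouse within its group. The 6 L-gp130 CD4 and 3 L-gp130 CD8 libraries came from L-gp130fl/+;CD4Cre+/- mice, and the 6 control CD4 and 6 control CD8 libraries came from CD4Cre+/- mice. Every mouse therefore carried Cre under the Cd4 promoter, which is active in developing T cells of both lineages, and the L-gp130 mice carried in addition a conditional allele of constitutively active gp130, the signalling chain of the interleukin-6 receptor family. CD4 cells were taken by positive and CD8 cells by negative selection on magnetic beads, so cell type and selection method cannot be told apart.

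Killer lectin receptors are type II membrane proteins with a C-type lectin-like domain, used by NK cells and by antigen-experienced or innate-like T cells to sense class I and class I-like molecules on other cells. Inhibitory members carry a tyrosine-based motif in their own tail, whereas activating members signal through the small adaptors Tyrobp (DAP12), Hcst (DAP10) or Fcer1g. In the spleen their transcripts come from NK cells and from a minor share of T cells, mostly memory-type CD8 cells. Klrd1 (CD94) pairs with the inhibitory NKG2A chain encoded by Klrc1 or the activating NKG2C chain encoded by Klrc2, and both pairs bind H2-T23 (Qa-1). Ncr1 (NKp46) is an activating receptor of the immunoglobulin superfamily and not a lectin.

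By the GRCm38 annotation, 9 of the 10 genes lay on chromosome 6, from Klrg1 (122270596 to 122282882, minus strand) through Klrb1c (128778485 to 128789215, minus strand) to Klra8 (130115226 to 130129898, minus strand). The CD94-NKG2 block held Klre1 (129577905 to 129585827, plus strand), Klrd1 (129591782 to 129598775, plus strand), Klrk1 (129610323 to 129623864, minus strand), Klrc2 (129647496 to 129660689, minus strand), Klrc1 (129666015 to 129678973, minus strand) and Klri2 (129729041 to 129740484, minus strand). Ncr1 lay on chromosome 7 (4337724 to 4345164, plus strand). All 10 are annotated as protein-coding.

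The 250 bases before the annotated start were read from RefSeq (GRCm38.p6) for the 7 members matched by symbol, with 11 starts among them. These starts differ in part from the gene bounds given above. The windows of Klrc2 and 1 of Klra8 lie partly inside those bounds, and the windows of Klre1 and Klrb1c lie wholly inside them. Klrc1, Klrc2 and Ncr1 are shown because in CD8 cells of L-gp130 mice the first rose, the second did not pass the test and the third fell. Sequences run 5′ to 3′ along the gene's strand and end 1 base before the start, and capitals mark the letters TGTGGT or, on the other strand, ACCACA, the core of the RUNX motif.
Klrc1, chr6:129678974-129679223, minus strand: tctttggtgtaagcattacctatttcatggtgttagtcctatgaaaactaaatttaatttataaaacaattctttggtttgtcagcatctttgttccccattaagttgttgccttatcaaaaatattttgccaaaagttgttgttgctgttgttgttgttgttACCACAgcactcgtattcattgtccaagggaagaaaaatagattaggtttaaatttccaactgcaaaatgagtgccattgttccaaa
Klrc2, chr6:129660597-129660846, minus strand: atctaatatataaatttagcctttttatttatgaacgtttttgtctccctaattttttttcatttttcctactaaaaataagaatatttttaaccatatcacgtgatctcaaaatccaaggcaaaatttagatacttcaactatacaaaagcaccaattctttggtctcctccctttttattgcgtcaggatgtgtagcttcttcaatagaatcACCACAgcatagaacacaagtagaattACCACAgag
Ncr1, chr7:4337465-4337714, plus strand: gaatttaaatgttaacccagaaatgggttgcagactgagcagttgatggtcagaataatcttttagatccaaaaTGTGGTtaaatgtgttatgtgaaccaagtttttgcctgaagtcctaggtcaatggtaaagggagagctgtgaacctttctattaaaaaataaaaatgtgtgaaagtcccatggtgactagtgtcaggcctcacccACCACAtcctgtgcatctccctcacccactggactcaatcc
The Klrc1 match began 87 bases before the start (position -87), the Klrc2 matches at -36 and -9, and the Ncr1 matches at -176 and -41. Of the 11 windows, 8 held at least 1 such match, while 14.05% of 32851 mouse promoter windows of this length did. Windows of 1 member overlap each other, and the 8 belong to 6 members (Klrc1, Klrc2, Klrk1, Klre1, Klrb1c and Ncr1, not Klra8). The letters TTCNNNGAA (STAT), TCACACC or GGTGTGA (T-box) and TGANTCA (AP-1), searched on both strands and counted apart from RUNX even where letters overlap, were found in 0 of the 11 windows, against 7.02%, 3.33% and 6.75% of all windows. These matches describe letters in a window and not bound sites.

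Summed gene counts per CD4 library ranged from 17781085 to 21226510 in L-gp130 mice, against 27855757 to 35869208 in control mice. For CD8 libraries the sums were 17217364 to 19476881 in L-gp130 mice, against 17719183 to 19286396 in control mice. Depth therefore went with genotype in CD4 libraries, where its part in the results was not tested. The CD8 markers Cd8a and Cd8b1 summed to 926 to 1087 TPM (abundance scaled to transcript length and library) in L-gp130 CD8 libraries, against 1232 to 1638 TPM in control CD8 libraries, without overlap, and to between 26.9 and 76.5 TPM in CD4 libraries. The CD4 markers Cd4, Zbtb7b and Cd40lg summed to 334 to 542 TPM in L-gp130 CD4 libraries, against 503 to 623 TPM in control CD4 libraries, and to between 13.4 and 23.4 TPM in CD8 libraries. By edgeR, both CD8 markers were lower in L-gp130 CD8 cells (Cd8a -0.36 ± 0.08, adjusted p = 0.0112, and Cd8b1 -0.67 ± 0.10, adjusted p = 0.00147), and 2 of 3 CD4 markers were lower in L-gp130 CD4 cells (Zbtb7b and Cd40lg, not Cd4). The part of these shifts in the receptor results was not tested. L-gp130 CD4 replicate 1 stood apart on the second principal component of the CD4 libraries (score 60.2, others -39.7 to 24.0). In the CD8 libraries that component placed control replicates 1 to 3 between -33.0 and -22.0 and control replicates 4 to 6 between -3.41 and 46.3, with L-gp130 libraries between 0.713 and 21. Erythroid markers summed to 13931 to 68543 TPM in L-gp130 CD4 libraries, against 9516 to 50286 TPM in control CD4 libraries, and to 73.8 to 213 TPM in L-gp130 CD8 against 69.4 to 1264 TPM in control CD8 libraries, and their part in the results was not tested. Reads of sex-linked genes went against the labelled sex in 1 of the 21 libraries, control CD4 replicate 5. Several results are given below without L-gp130 CD4 replicate 1, alone or together with control CD4 replicate 5. Others are given against control CD8 replicates 1 to 3 or 4 to 6 alone.

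All 10 receptors were more abundant per length in control CD8 than in control CD4 libraries, and their order differed between the cell types. Klrd1 had the highest mean TPM of the 10 in every group, though not the highest TPM in every L-gp130 CD4 library. It averaged 415 ± 97.8 TPM (SD, n = 3) in L-gp130 CD8, 398 ± 19.6 TPM (n = 6) in control CD8, 24.5 ± 4.59 TPM (n = 6) in L-gp130 CD4 against 39.1 ± 4.75 TPM (n = 6) in control CD4 libraries. In CD8 libraries Klrc1 came next in L-gp130 mice with 94.3 ± 16.1 TPM, above Klrk1 with 55.2 ± 8.73 TPM and Klrb1c with 36.6 ± 9.20 TPM. Control CD8 libraries had another order, with Klrk1 at 61.2 ± 5.31 TPM above Klrc1 at 42.8 ± 2.95 TPM and Klrb1c at 39.3 ± 8.05 TPM, and there the Klrc1 and Klrb1c ranges overlapped.

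The less abundant receptors in CD8 libraries included Ncr1, at 10.2 ± 2.10 TPM in L-gp130 and 22.0 ± 3.401 TPM in control mice, and Klra8 (Ly49H), an activating receptor that signals through Tyrobp, at 10.3 ± 5.66 TPM in L-gp130 and 18.8 ± 4.13 TPM in control mice. Klri2 was the lowest of the 10 in CD8 libraries, with 2.54 ± 0.391 TPM in L-gp130 and 5.91 ± 1.47 TPM in control mice. In CD4 libraries Klrc2, Klra8, Ncr1, Klre1 and Klri2 all averaged under 3 TPM in both genotypes, with ranges that overlapped among several of them. Klrb1c (NK1.1), an activating receptor that marks NK and NKT cells in this strain, reached 14.9 ± 4.0 TPM in L-gp130 CD4 against 17.5 ± 4.82 TPM in control CD4 libraries.

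**Figure D1:**
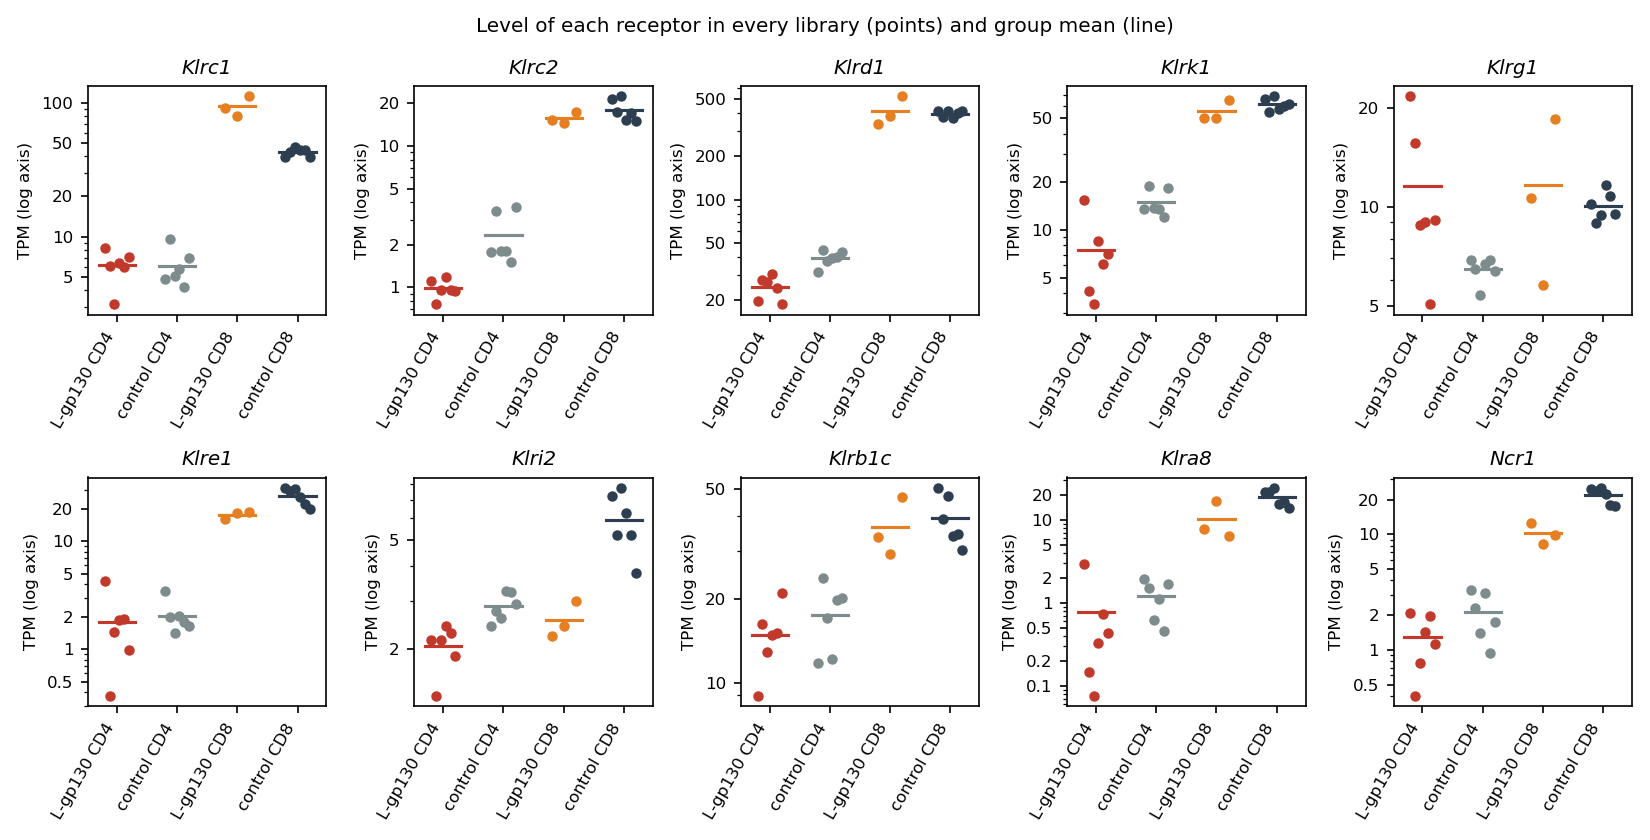
TPM of each receptor (log axis, a scale per panel) in the 21 libraries as points, with the mean of each group as a line. Klrc1 separates the 3 L-gp130 CD8 libraries (79.8 to 112 TPM) from the 6 control CD8 libraries (39.2 to 46.8 TPM), while Klrd1 does not.

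Between cell types, edgeR's quasi-likelihood test called 8 of 10 receptors higher in CD8 than in CD4 libraries of L-gp130 mice, where 22.9% of all tested genes were called higher. In control mice it called 10 of 10 higher, against 27.2% of all tested genes. The log2 ratio of CD8 over CD4 was 3.82 ± 0.23 (SE) for Klrc1 in L-gp130 mice and 2.69 ± 0.21 in control mice (edgeR adjusted p = 3.48e-10 and 5.53e-09). For Klrd1 it was 3.87 ± 0.11 in L-gp130 mice and 3.338 ± 0.10 in control mice (edgeR adjusted p = 1.12e-15 and 3.53e-15). Klrg1 and Klri2 were the exceptions in L-gp130 mice, with log2 ratios of 0.06 ± 0.35 and 0.29 ± 0.21 (edgeR adjusted p = 0.904 and 0.284). Klrg1 was also the least stable in control mice, with a log2 ratio of 0.90 ± 0.31 (edgeR adjusted p = 0.0223) that lost its call with no low-count filter (0.0659) and with control CD8 replicates 1 to 3 (0.0989) or 4 to 6 (0.0770) alone.

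In CD8 cells of L-gp130 mice Klrc1 rose, Ncr1, Klri2 and Klre1 fell, and the other 6 receptors did not pass the test. Among all 14254 genes tested, 10.5% were called higher and 10.5% lower. The median log2 fold change was -0.22 over the 10 receptors and -0.01 over all genes tested. In bulk RNA such as this, fewer cells of a type and less RNA per cell cannot be told apart.

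Klrc1, the inhibitory chain, had 76.6, 70.4 and 94.5 CPM (counts scaled to library size with TMM factors) in the L-gp130 CD8 libraries, against a lowest of 33.3, a median of 38.6 and a highest of 40.4 CPM in the control CD8 libraries. Every L-gp130 value lay above every control value. The log2 fold change was 1.09 ± 0.10 (SE), or 2.13-fold (edgeR adjusted p = 7.18e-05). Its call held under all 11 other settings tried (edgeR, DESeq2 or limma-voom adjusted p up to 0.00059) and with each library left out.

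Klrc2, the activating chain encoded beside it, had 19.2, 19.4 and 22.1 CPM in L-gp130 CD8 libraries, against 19.4 to 29.2 CPM with a median of 23.2 CPM in control CD8 libraries. The groups overlapped, and a log2 change of -0.25 ± 0.15 (SE) missed the threshold (edgeR adjusted p = 0.265). It passed against control replicates 1 to 3 alone (-0.43, adjusted p = 0.0336). The ratio of Klrc1 to Klrc2 TPM within a library was 5.48 to 6.45 in L-gp130 CD8 against 1.85 to 2.91 in control CD8 libraries, without overlap. Sequence limits how far the chains can be separated: 53.1% of the 31-base words of Klrc1 transcripts and 21.6% of those of Klrc2 also occur in other genes, chiefly in each other and in Klrc3. Summed over Klrc1, Klrc2 and Klrc3, which needs no split, the level was 101.8 ± 14.3 CPM (SD, n = 3) in L-gp130 CD8 against 62.8 ± 6.04 CPM (n = 6) in control CD8 libraries, a log2 difference of 0.69 (edgeR adjusted p = 0.00122).

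Klrd1, the partner of both chains, had 114, 137 and 179.6 CPM in L-gp130 CD8 libraries, against 132 to 149.9 CPM with a median of 142 CPM in control CD8 libraries. The L-gp130 libraries lay below, within and above the control range, and the log2 fold change was 0.01 ± 0.10 (SE, edgeR adjusted p = 0.975). The TPM of Klrd1 per Klrc1 was accordingly 3.68 to 4.82 in L-gp130 CD8 against 8.45 to 10.6 in control CD8 libraries. No 31-base word of Klrd1 occurs in another gene.

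**Figure D2:**
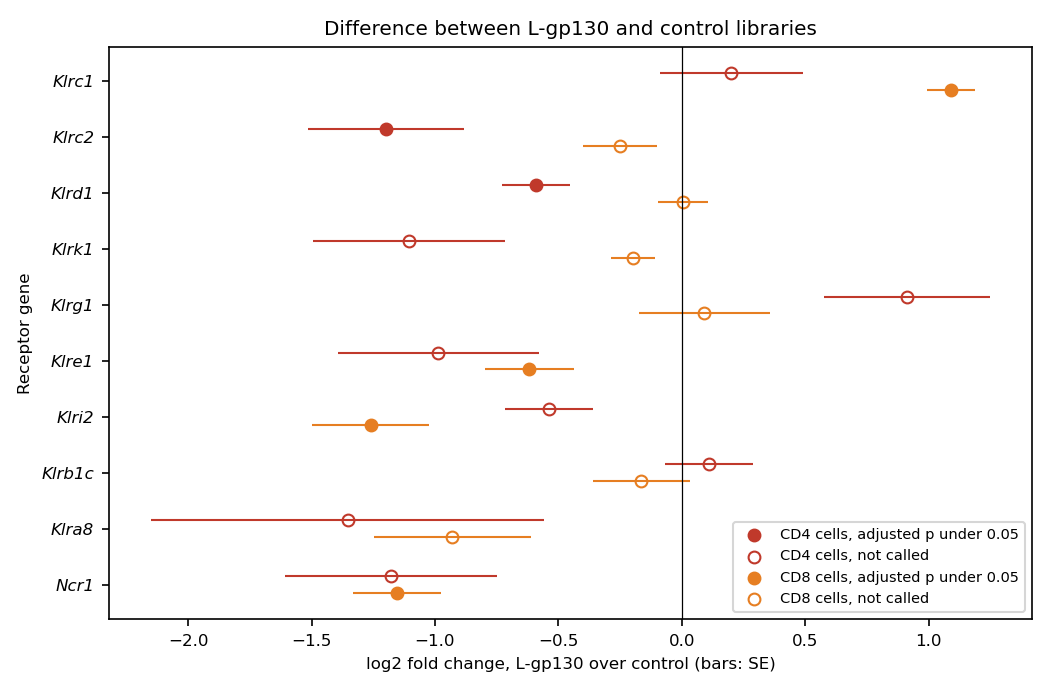
Log2 fold change of each receptor, L-gp130 over control, with its SE as a bar, in CD4 and in CD8 cells; filled points passed edgeR's test at an adjusted p under 0.05. In CD8 cells Klrc1 stands at 1.09 and Klri2 and Ncr1 at -1.26 and -1.15, and in CD4 cells Klrc2 and Klrd1 are the filled points.

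The other receptors shared with T cells included both KLRE1 and KLRI2, which form a heterodimer in the rat. Klri2 had 5.15, 5.83 and 6.92 CPM in L-gp130 CD8 libraries, against 8.82 to 18.3 CPM with a median of 14.1 CPM in control CD8 libraries. All L-gp130 values were below all control values, and the log2 fold change was -1.26 ± 0.24 (SE, 0.417 times the control level, edgeR adjusted p = 0.00461). Klre1 had 9.75, 11.7 and 11.4 CPM in L-gp130 CD8 libraries, against 12.1 to 20.2 CPM with a median of 17.7 CPM in control CD8 libraries. Klre1 did not overlap either, and its log2 fold change was -0.62 ± 0.18 (edgeR adjusted p = 0.0339).

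The Klre1 call is the least stable of the 4 in CD8 cells. It was lost when any of the 3 L-gp130 libraries or any of control replicates 1 to 3 was left out (edgeR adjusted p up to 0.154). Control replicates 1 to 3 had 20.2, 19.4 and 19.2 CPM of Klre1 and control replicates 4 to 6 had 16.1, 13.9 and 12.1 CPM. Against replicates 1 to 3 alone the log2 fold change was -0.84 (edgeR adjusted p = 0.00445), and against replicates 4 to 6 alone it was -0.35 (adjusted p = 0.146). Klrc1, Klri2 and Ncr1 passed against either set of controls.

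Klrk1 (NKG2D), an activating receptor for stress-induced ligands that pairs with Hcst, had 52.0, 54.4 and 68.0 CPM in L-gp130 CD8 libraries, against 61.4 to 72.9 CPM with a median of 64.5 CPM in control CD8 libraries. Its log2 change, -0.20 ± 0.09 (SE), missed the threshold (edgeR adjusted p = 0.140). Klrg1, an inhibitory receptor for cadherins found on short-lived effector T cells, had 9.04, 5.17 and 15.9 CPM in L-gp130 CD8 libraries, against 8.21 to 10.4 CPM with a median of 8.81 CPM in control CD8 libraries. The 3 L-gp130 values spread on both sides of the control range, at a log2 change of 0.09 ± 0.27 (edgeR adjusted p = 0.841).

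The 3 genes taken as NK-restricted did not move alike in CD8 cells. Ncr1 had 10.9, 7.65 and 8.81 CPM in L-gp130 CD8 libraries, against 15.8 to 23.3 CPM with a median of 21.7 CPM in control CD8 libraries. It was lower in all 3 L-gp130 libraries than in every control library, by a log2 fold change of -1.15 ± 0.18 (SE, 0.450 times the control level, edgeR adjusted p = 0.00176). Klra8 had 4.85, 11.1 and 4.06 CPM in L-gp130 CD8 libraries, against 8.93 to 15.7 CPM with a median of 12.6 CPM in control CD8 libraries. Its replicate 2 lay inside the control range, and the log2 fold change of -0.93 ± 0.32 missed the threshold (edgeR adjusted p = 0.0631); without that library it was -1.47 (adjusted p = 0.00885).

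Klrb1c had 40.4, 36.8 and 56.7 CPM in L-gp130 CD8 libraries, against 36.7 to 64.8 CPM with a median of 47.3 CPM in control CD8 libraries. These ranges overlapped almost fully, and the log2 fold change was -0.16 ± 0.20 (SE, edgeR adjusted p = 0.593). For Klra8, 55.0% of the 31-base words are shared, mostly with Klra14-ps and Klra9, and Klrb1c shares 21.2% and overlaps exons of the gene model Gm44511, so the reads of both are less certain than those of Ncr1, which shares none.

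In CPM, 4 of 10 receptors did not overlap between the genotypes in CD8 cells, Klrc1 above and Klre1, Klri2 and Ncr1 below the control range, while of all genes tested 11.7% lay wholly above and 12.4% wholly below.

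In CD4 cells of L-gp130 mice Klrc2 and Klrd1 fell, no receptor rose by edgeR's test, and the other 8 did not pass. Of 15016 genes tested, 11.1% were called higher and 7.75% lower. DESeq2 called 5 receptors lower and 1 higher, against 10.3% and 13.99% of all genes by DESeq2. The median log2 fold change was -0.79 over the 10 receptors and -0.01 over all genes tested.

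Klrd1 had a lowest of 8.05, a median of 10.6 and a highest of 12.1 CPM in L-gp130 CD4 libraries, against 13.6, 15.7 and 17.2 CPM in control CD4 libraries. No L-gp130 library reached the lowest control library. The log2 fold change was -0.59 ± 0.14 (SE, 0.664 times the control level, edgeR adjusted p = 0.00994), and it lost its call without L-gp130 CD4 replicate 6 (-0.44, adjusted p = 0.0570).

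Klrc2 had 1.65, 1.009, 1.30, 1.54, 1.35 and 1.33 CPM in L-gp130 CD4 replicates 1 to 6, against 2.57, 4.44, 2.26, 2.45, 1.95 and 4.64 CPM in control CD4 replicates 1 to 6. The genotypes did not overlap, although 19 to 33 Salmon reads in L-gp130 and 64 to 152 in control libraries stood behind each value. On the log2 scale the change was -1.20 ± 0.32 (SE, 0.436 times the control level, edgeR adjusted p = 0.0195), and the call was lost without L-gp130 CD4 replicate 2 or 6 (adjusted p = 0.0764 and 0.0766). Klrc1 ranged from 3.02 to 8.76 CPM with a median of 5.94 CPM in L-gp130 CD4 libraries, against 3.89 to 8.83 CPM with a median of 5.25 CPM in control CD4 libraries. Its groups overlapped fully, at a log2 change of 0.20 ± 0.29 (edgeR adjusted p = 0.665). The Klrc1 to Klrc2 ratio in TPM was 3.27 to 8.03 in L-gp130 CD4 against 1.86 to 3.17 in control CD4 libraries, again without overlap. This ratio and the Klrc2 call rest on Salmon's division of reads between similar genes. Summed over Klrc1, Klrc2 and Klrc3, the level was 7.54 ± 2.03 CPM (SD, n = 6) in L-gp130 CD4 against 8.83 ± 2.82 CPM (n = 6) in control CD4 libraries. The ranges of that sum overlapped, and it was not called.

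Klri2 had a highest value of 5.898 CPM in L-gp130 CD4 libraries and a lowest of 5.903 CPM in control CD4 libraries, so that the groups were separate by a margin far below their spread. Its log2 fold change of -0.54 ± 0.18 (SE) missed the threshold (edgeR adjusted p = 0.0534). With Klrc2 and Klrd1 it made 3 of 10 receptors whose CPM did not overlap, all of them lower, while 5.85% of all genes tested lay wholly below the control range.

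Klrk1 had 17.5, 4.29, 3.54, 8.61, 6.70 and 7.85 CPM in L-gp130 CD4 replicates 1 to 6, against 12 to 18.7 CPM with a median of 14.5 CPM in control CD4 libraries. Replicate 1 lay inside the control range and the other 5 libraries below it. The log2 fold change was -1.11 ± 0.39 (SE, edgeR adjusted p = 0.0689) with all libraries and -1.30 (adjusted p = 0.00327) without replicate 1.

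Klrg1 had 20.3, 13.3, 7.56, 7.46, 4.55 and 8.34 CPM in L-gp130 CD4 replicates 1 to 6, against 4.31 to 6.31 CPM with a median of 5.43 CPM in control CD4 libraries. Of the 6 L-gp130 libraries, 5 lay above every control library. Its log2 change was 0.91 ± 0.34 (SE, edgeR adjusted p = 0.0787), and it passed without replicate 1 (0.70, adjusted p = 0.0369), without replicate 5 (adjusted p = 0.0313), with DESeq2 (adjusted p = 0.0403) and without the sex covariate (adjusted p = 0.0301).

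The receptors at the lowest levels in CD4 cells had few reads and wide spread. Ncr1 ranged from 0.353 to 2.04 CPM with a median of 1.12 CPM in L-gp130 CD4 libraries, against 0.796 to 3.11 CPM with a median of 1.71 CPM in control CD4 libraries (7 to 38 and 27 to 108 Salmon reads). The log2 fold change was -1.18 ± 0.43 (SE, edgeR adjusted p = 0.0741), and without the sex covariate it was -0.66 (adjusted p = 0.260). Klre1 ranged from 0.252 to 3.36 CPM with a median of 1.18 CPM in L-gp130 CD4 libraries, against 0.938 to 2.65 CPM with a median of 1.30 CPM in control CD4 libraries. Its log2 fold change of -0.99 ± 0.41 (edgeR adjusted p = 0.110) was -0.11 (adjusted p = 0.887) without the sex covariate. Labelled males gave 4 of the 6 L-gp130 CD4 libraries, against 1 of the 6 from control mice.

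Klra8 had 2.20 CPM in L-gp130 CD4 replicate 1 and 0.0521 to 0.4998 CPM in the other 5, against 0.295 to 1.38 CPM with a median of 0.850 CPM in control CD4 libraries. The lowest of these values rested on 1 read. Its log2 change was -1.35 ± 0.80 (SE, edgeR adjusted p = 0.256), and -2.06 (adjusted p = 0.0194) without replicate 1. Klrb1c ranged from 12.9 to 29.5 CPM with a median of 19.9 CPM in L-gp130 CD4 libraries, against 15.99 to 29.98 CPM with a median of 22.8 CPM in control CD4 libraries. With 248 to 573 reads in L-gp130 and 538 to 971 reads in control libraries, it changed by 0.11 ± 0.18 on the log2 scale (edgeR adjusted p = 0.706), which turned to -0.14 without the sex covariate.

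Without L-gp130 CD4 replicate 1, edgeR called 7 of 10 receptors lower (Klrc2, Klrd1, Klrk1, Klre1, Klri2, Klra8 and Ncr1) and 1 higher (Klrg1), while it called 10.7% of all genes tested lower and 12.9% higher. With control CD4 replicate 5 left out as well, it called 6 lower and 0 higher, against 9.98% and 12.2% of all genes. Leaving out L-gp130 CD4 replicate 2 alone gave 1 receptor lower and 5.72% of all genes lower. Leaving out L-gp130 CD4 replicate 6 alone gave 0 receptors lower and 3.79% of all genes lower.

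**Figure D3:**
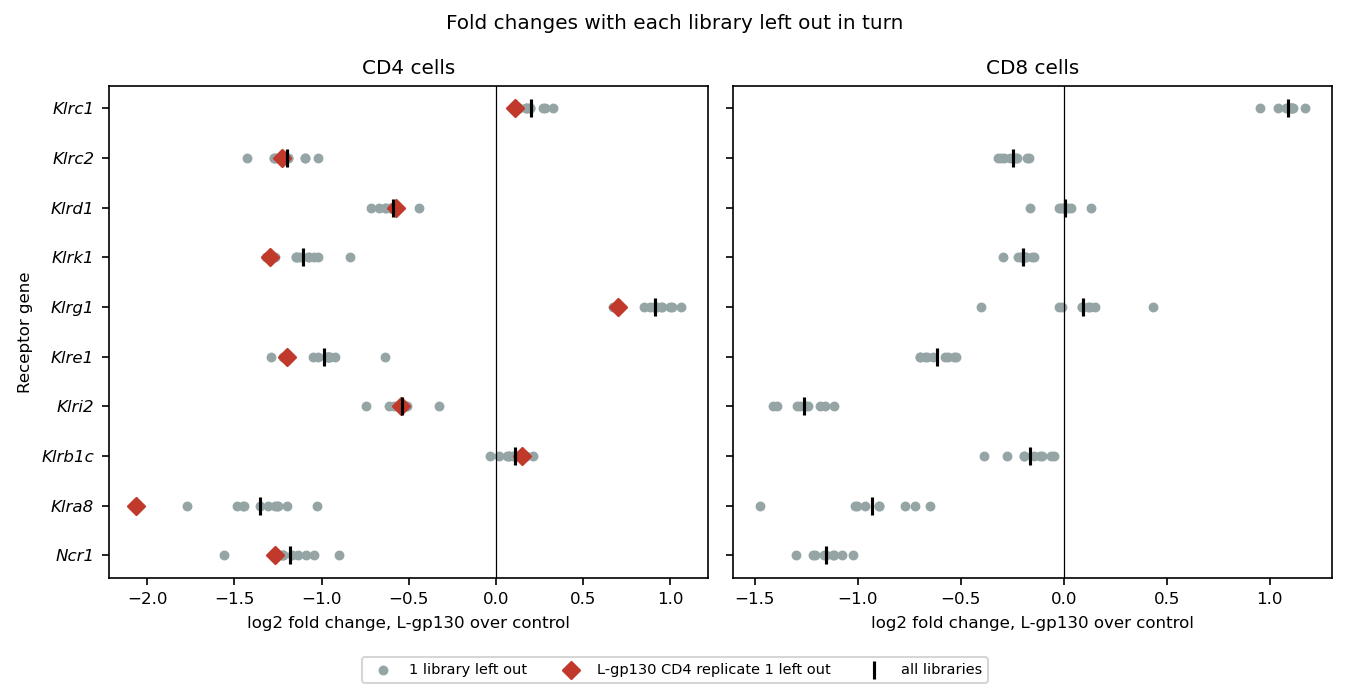
Log2 fold changes, L-gp130 over control, in CD4 cells (left) and CD8 cells (right), with all libraries (bars) and with 1 library left out in turn (points); red diamonds leave out L-gp130 CD4 replicate 1. In CD4 cells the fold change of Klra8 lies at -2.06 without that library and at -1.35 with it, while in CD8 cells Klrc1 stays to the right of 0 and Klri2 and Ncr1 to the left.

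The difference of the genotype effect between CD8 and CD4 cells passed for 0 of 10 receptors with edgeR, against 3.46% of 15758 genes tested. DESeq2 called 2 and limma-voom 1, against 6.08% and 3.14% of all genes tested. The nearest were Klrd1, with a difference of 0.53 ± 0.15 (SE, log2, CD8 minus CD4, edgeR adjusted p = 0.0507, 0.0139 to 0.148 over the other settings), and Klrc1, with 1.13 ± 0.32 (adjusted p = 0.0548, 0.00236 to 0.239). Without L-gp130 CD4 replicate 1 the test called 3, namely Klrc1 (1.29, adjusted p = 0.00600), Klrd1 (0.52, adjusted p = 0.0426) and Klrk1 (1.06, adjusted p = 0.00805). Klrc1 also passed with control CD4 replicate 3 or control CD4 replicate 5 left out alone. Of the 12 other settings with no single library left out, Klrc1 passed in 6 and Klrd1 in 7, so that their calls depend on the setting. Without replicate 1 the share of all genes called was 6.25%.

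Ratios within a library set the shared receptors against the summed TPM of Ncr1, Klrb1c and Klra8. Klrb1c, which also marks NKT cells, made most of that sum in CD4 libraries, at 0.639 to 0.967 of it in L-gp130 and 0.692 to 0.934 in control mice. Its part was 0.538 to 0.742 in L-gp130 CD8 against 0.465 to 0.521 in control CD8 libraries, without overlap. Klrc1 was 1.47 to 1.77 times that sum in L-gp130 CD8 against 0.407 to 0.644 times in control CD8 libraries. Klrc2 was 0.269 to 0.282 times the sum in L-gp130 CD8 against 0.205 to 0.249 times in control CD8 libraries, so the ratios of both NKG2 chains lay above the control range. Klrc2 itself did not rise in CD8 cells (log2 fold change -0.25). The genes of the sum changed by -1.15 (Ncr1), -0.93 (Klra8) and -0.16 (Klrb1c) on the log2 scale, and a lower sum raises such a ratio. The share of all genes that lie apart in ratios to this sum was not computed. The Klri2 ratio lay below the control range, at 0.0415 to 0.0472 times the sum in L-gp130 CD8 against 0.0610 to 0.0873 times in control CD8 libraries. The other 4 (Klrd1, Klrk1, Klrg1 and Klre1) overlapped, and Klrd1 was 6.24 to 8.30 times the sum in L-gp130 CD8 against 4.25 to 6.69 times in control CD8 libraries. In CD4 libraries all 7 overlapped.

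Which ratios overlapped depended on the denominator. Ncr1 itself fell to 0.450 times the control level in CD8 cells, which raises the ratio to it of any gene that did not change. Per Ncr1, 6 of the 7 shared receptors were higher without overlap in TPM and 5 of 7 in reads. Klrd1, with a log2 fold change of 0.01 in CD8 cells, was among them in both units. The share of all genes that lie apart in such ratios was not computed, so these counts are no result about the receptors. Klrc1 was 7.35 to 11.3 times the TPM of Ncr1 in L-gp130 CD8 against 1.59 to 2.48 times in control CD8 libraries. Klri2 per Ncr1 overlapped in both units, and Klre1 per Ncr1 overlapped in reads only, at 0.866 to 1.54 in L-gp130 CD8 against 0.726 to 0.875 in control CD8 libraries.

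The 3 genes taken as NK-restricted did not keep 1 ratio across the groups. Klrb1c was 2.71 to 4.72 times Ncr1 in L-gp130 CD8, against 1.51 to 2.04 times in control CD8 libraries, without overlap. In CD4 libraries it was 4.30 to 40.8 times Ncr1 in L-gp130 mice, against 3.58 to 20.99 times in control mice. Klra8 was 0.620 to 2.03 times Ncr1 in L-gp130 CD8, against 0.696 to 0.958 times in control CD8 libraries. Its CD4 values were 0.0991 to 1.42 times in L-gp130 mice, against 0.358 to 0.959 times in control mice, so that both pairs of ranges overlapped.

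**Figure D4:**
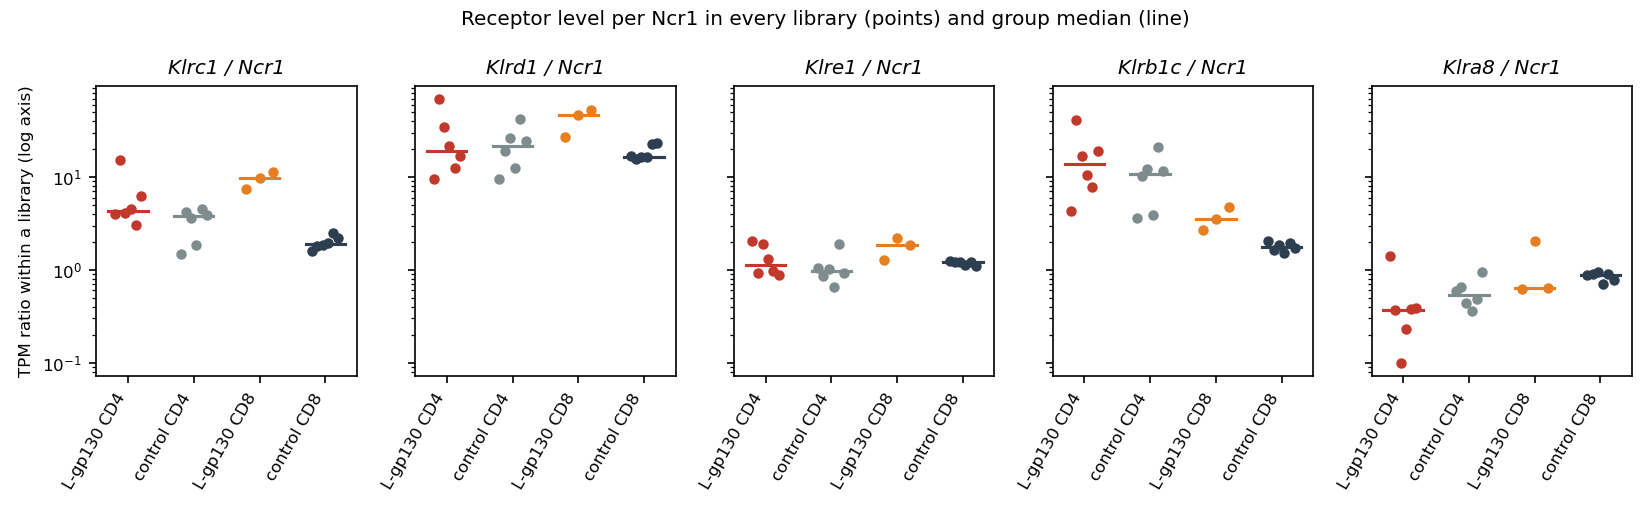
Ratio of 5 receptors to Ncr1 in TPM (log axis) in each library as points, with the group median as a line. Klrc1 per Ncr1 is 7.35 to 11.3 in L-gp130 CD8 against 1.59 to 2.48 in control CD8 libraries, and Klrb1c per Ncr1 reaches its highest values in CD4 libraries.

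Markers of other cells that use these receptors were counted against the shares of all genes given above, as were the gene lists after them. These shares were 10.5% higher and 10.5% lower in CD8 cells and 11.1% higher and 7.75% lower in CD4 cells. Of 11 further NK markers, edgeR called 1 higher (Gzma, a granule protease also made by effector T cells, 0.90 ± 0.16 on the log2 scale, adjusted p = 0.00469) and 0 lower in CD8 cells. Their summed level was 745 to 980 TPM in L-gp130 CD8 against 509 to 634 TPM in control CD8 libraries. Gzma, Il2rb and Eomes are also in the effector-memory CD8 list below, so its sum and this one are not independent. In CD4 cells it called 3 of 10 tested higher (Gzma, Klrb1f and Itga2) and 2 lower (Klra4 and Klra9), and the sum was 242 to 386 TPM in L-gp130 CD4 against 188 to 236 TPM in control CD4 libraries.

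The NKT markers (Zbtb16, Trav11, Trav11d and the member Klrb1c), of which 2 of 3 tested rose in CD8 cells, summed to 104.8 to 116 TPM in L-gp130 CD8 against 56.1 to 90.1 TPM in control CD8 libraries, with Trav11d at 0 in every library. In CD4 cells 0 of 3 tested were called, and the sum was 50.9 to 84.9 TPM in L-gp130 against 53.3 to 124 TPM in control libraries. Gamma-delta T cell markers, of which 3 of 5 rose in CD8 cells and 0 of 5 were called in CD4 cells, summed to 118 to 134 TPM in L-gp130 CD8 against 44.6 to 75.0 TPM in control CD8 libraries. Of 12 effector-memory CD8 markers, 5 rose and 1 fell in CD8 cells, and their sum was 4941 to 7050 TPM in L-gp130 CD8 against 3596 to 4409 TPM in control CD8 libraries. In CD4 cells 4 of these 12 rose and 0 fell. Their sum there was 793 to 2238 TPM in L-gp130 CD4 against 539 to 782 TPM in control CD4 libraries, without overlap. Of 3 innate lymphoid markers, 2 rose in each cell type. Of 4 T cell markers, 2 fell in CD8 cells and 0 were called in CD4 cells. The part of these cells in the receptor results was not tested.

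Among 17 other lectin genes of the NK gene complex, 15 were tested in CD8 cells and 3 rose, against 10.5% of all genes tested. They were Klrb1a (1.22 ± 0.20, edgeR adjusted p = 0.00251), Klra6 (0.61 ± 0.17, adjusted p = 0.0304) and Klrb1 (1.66 ± 0.51, adjusted p = 0.0399). Klrb1a averaged 12.8 ± 1.48 TPM (SD, n = 3) in L-gp130 CD8 against 5.28 ± 0.986 TPM (n = 6) in control CD8 libraries. The most abundant, Klra7 (Ly49G), averaged 31.9 ± 6.96 TPM in L-gp130 CD8 against 29.8 ± 6.27 TPM in control CD8 libraries, at a log2 change of 0.06 ± 0.19 (edgeR adjusted p = 0.854). In CD4 cells 10 were tested, with Klrb1f higher (1.14 ± 0.29, edgeR adjusted p = 0.0154) and Klra4 and Klra9 lower (-1.62 ± 0.53 and -1.56 ± 0.36, adjusted p = 0.0484 and 0.00972). Klra8 shares sequence with Klra9, as given above, and Klrb1c shares some with Klrb1a. How much the other genes of this list share was not measured.

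Of 12 adaptor and signalling genes, 0 rose and 3 fell in CD8 cells, against 10.5% each way of all genes tested. All 3 are signalling subunits of these receptors or of the T cell receptor. Cd247 (the zeta chain) changed by -0.60 ± 0.08 on the log2 scale (edgeR adjusted p = 0.000647), Tyrobp by -0.69 ± 0.19 (adjusted p = 0.0288) and Hcst by -0.25 ± 0.08 (adjusted p = 0.0437). In CD4 cells the kinase Zap70 (0.48 ± 0.08, edgeR adjusted p = 0.00117) and the phosphatase Ptpn11 (0.75 ± 0.09, adjusted p = 0.000218) rose and Cd247 fell (-0.35 ± 0.11, adjusted p = 0.0377).

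Of 12 ligand genes, 5 were tested in each cell type and none rose. Of all genes tested, 10.5% were called lower in CD8 cells and 7.75% in CD4 cells. H2-T23, the ligand of both CD94-NKG2 pairs, fell in CD8 cells (-0.40 ± 0.06 on the log2 scale, edgeR adjusted p = 0.00145), as did Ulbp1 (MULT1), a ligand of NKG2D (-1.02 ± 0.22, adjusted p = 0.00993), and Clec2d, a ligand of an inhibitory NKR-P1 receptor (-0.39 ± 0.09, adjusted p = 0.0108). In CD4 cells Ulbp1 (-0.91 ± 0.25, edgeR adjusted p = 0.0224) and the Klrg1 ligand Cdh1 (-1.29 ± 0.24, adjusted p = 0.00268) fell.

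Of 10 regulators of cytotoxic cells, 3 rose and 0 fell in CD8 cells, against 10.5% each way of all genes tested. Those that rose were Id2 (0.78 ± 0.13 on the log2 scale, edgeR adjusted p = 0.00223) and Tbx21 (0.55 ± 0.12, adjusted p = 0.0115), both transcriptional regulators, and Il15ra (0.53 ± 0.17, adjusted p = 0.0463), the chain that presents interleukin-15. Runx3, whose family binds the letters shown above, had a log2 fold change of 0.30 ± 0.11 (adjusted p = 0.0690). In CD4 cells Nfil3, a regulator of NK cell development, rose (1.002 ± 0.26, edgeR adjusted p = 0.0172).

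Profiles over the 21 libraries, each centred at its own mean log2 CPM, were compared between each receptor and 13174 genes by the root mean square difference, which is smaller for more similar profiles. Klrc2 and Klrd1 were each other's nearest gene (0.35), as were Klre1 and Ncr1 (0.47). The nearest to Klrc1 were Ctsw (0.45) and Dusp1 (0.49), to Klrg1 Gna15 (0.36) and Il18r1 (0.37), and to Klri2 Akap2 (0.33) and Col23a1 (0.34). Klrk1 lay nearest to Ifitm10 (0.41) and Atp8b4 (0.48), Klrb1c to B4galt7 (0.28) and Jund (0.29), and Klra8 to Cma1 (0.70) and Klra4 (0.71). All of these genes share libraries and the CD8 to CD4 difference, so the values are descriptions.

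At the transcript level, by Salmon's division of reads, Klri2, Klra8 and Klrg1 have 1 annotated transcript each. Of the reads of Klrc1, its longest coding transcript Klrc1-201 took 91.6% to 93.6% in L-gp130 CD8 against 91.4% to 97.5% in control CD8 libraries. Of those of Klrc2, the retained-intron transcript Klrc2-206 took 25.3% to 29.8% in L-gp130 CD8 against 17.7% to 24.4% in control CD8 libraries, without overlap. For Klrk1, the coding transcript Klrk1-205 took 46.6% to 49.5% in L-gp130 CD8 against 51.0% to 59.2% in control CD8 libraries, also without overlap. No test was made of these shares. How many transcripts of all genes lie apart in this way was not computed, so the lack of overlap is no result about the receptors.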

How the data were processed

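Per the labels' protocols, polyA libraries of bead-selected spleen T cells were sequenced unstranded as 150 bp paired ends. Per the submitters' processing notes the tools were cutadapt 3.4, Trimmomatic 0.39, Salmon 1.5.2 and edgeR 3.34.1, with build GRCm38. Estimated counts per gene were deposited by the authors as 1 table of CD4 and 1 of CD8 libraries, and per the file headers Salmon's estimated counts (reads) and TPM per transcript for each library. By their values the gene tables are TPM scaled by a gene length and library total: 97.1% of CD4 and 41.8% of CD8 entries lay within 1% of that product, and 99.7% of each did after 1 constant per gene. Gene names came from GENCODE mouse release M21 on GRCm38, and 51115 of 51201 IDs had a symbol. Which annotation release the authors used is not given in these sources.

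Rounded counts went into edgeR 4.0.16 (R 4.3.3) with filterByExpr, TMM factors and labelled sex as covariate. Its robust quasi-likelihood test was 2-sided, with Benjamini-Hochberg adjustment over all genes tested and calls at an adjusted p under 0.05. The p-values measure the spread between samples labelled as separate mice within each group. CD4 and CD8 tables were fitted apart, and comparisons across cell types used Salmon reads summed per gene over all 21 libraries. Each SE was computed as the absolute log2 value divided by the root of F. CPM was compared within a cell type, and TPM summed per gene between genes and cell types. The tests were run on simulated data first. All libraries of a group differed by more than sampling noise (chi-square per gene of 6.73 to 92.8 over 48 pairs).

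The alternatives tried were DESeq2 1.42.0, limma-voom (limma 3.58.1), RLE size factors, the low-count filter dropped or set at CPM 1, sex dropped or read from the data, the other count source, control CD8 replicates 1 to 3 or 4 to 6 alone, a replicate block, and leaving out libraries. Summing Klrc1, Klrc2 and Klrc3 was chosen after seeing the data. The members, lists and tests were chosen with earlier results of these data known. Named genes are the 10 members, up to 4 genes of each fixed list by adjusted p or level, and the 2 nearest profiles of each member (prior count 0.5, leaving out gene models and receptor segments). Some promoter windows and protein sequences were not used here.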

Additional observations from a re-analysis of the deposited data

Results flagged for a closer look

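Within each group of 6 libraries, the highest and lowest CPM of each receptor were set against the others by the size of their gap. Of 30 such groups 3 had a library that stood apart. The rule's rate of about 1 in 20 holds for independent, normally distributed values. These groups share libraries, so the count cannot be set against that rate. Klrk1 had 17.5 CPM in L-gp130 CD4 replicate 1, against 3.54 to 8.61 CPM in the other 5 libraries of that group. Klra8 had 2.20 CPM in that library, against 0.0521 to 0.4998 CPM in the other 5. Klre1 had 2.65 CPM in control CD4 replicate 1, against 0.938 to 1.47 CPM in the other 5 control CD4 libraries.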

How the results depend on the processing

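Of single fold changes, the settings other than leaving out a library kept direction and call in 82 of 100 for CD4 cells, 100 of 111 for CD8 cells and 95 of 121 for the difference of the effects. Cell type ratios kept them in 118 of 121 for control and 120 of 121 for L-gp130 mice. Receptors lower in CD4 cells numbered 2, and 5 with DESeq2 or 6 without both doubted CD4 libraries (L-gp130 replicate 1 and control replicate 5). Receptors higher there numbered 0, and 1 with DESeq2 or without the sex covariate, against 13.99% and 15.8% of all genes. Receptors whose effect differed between cell types numbered 0, and 1 with RLE size factors, limma-voom, no filter or control CD8 replicates 4 to 6 only, 2 with DESeq2, a filter at CPM 1, no sex covariate or sex read from the data, and 4 without both doubted CD4 libraries. Over these settings the share of all genes called for the difference ran from 1.29% (no filter) to 6.08% (DESeq2). It was 5.67% without both doubted libraries. With 1 library left out the ranges were 0 to 1 higher and 0 to 7 lower in CD4 cells, 1 to 1 higher and 2 to 3 lower in CD8 cells, 0 to 3 for the difference, 10 to 10 for control and 8 to 8 for L-gp130 cell type ratios. The cause was not tested.

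Fold changes that turned sign were not called on either side. In CD4 cells they were Klrb1c at -0.14 (no sex covariate) and -0.047 (sex read from the data), and Klrc1 at -0.043 (reads per transcript) and -0.16 (summed with Klrc2 and Klrc3). In CD8 cells they were Klrd1 at -0.0019 (limma-voom), -0.00069 (no filter) and -0.024 (control replicates 1 to 3), and Klrg1 at -0.0048 and Klrb1c at 0.11 (control replicates 4 to 6). For the difference they were Klra8 at 0.011 (DESeq2), 0.52 (limma-voom), 1.19 (doubted libraries out) and 0.46 (control CD8 replicates 4 to 6), Klrb1c at 0.014 (no sex covariate) and 0.13 (control CD8 replicates 4 to 6), Klre1 at 0.31 and 0.33, and Ncr1 at 0.086 and 0.10 (doubted libraries out and control CD8 replicates 4 to 6). With 1 library left out the log2 values ranged from -0.036 to 0.21 for Klrb1c in CD4 cells, from -0.16 to 0.13 for Klrd1 and -0.40 to 0.43 for Klrg1 in CD8 cells, from -0.56 to 1.03 for Klra8, -0.43 to 0.27 for Klre1 and -0.45 to 0.010 for Ncr1 in the difference, and from -0.44 to 0.41 for Klrg1 in L-gp130 cell type ratios.

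Mouse numbers are shared between groups, but equal numbers do not name the same mouse throughout: L-gp130 replicate 2 is labelled female in CD4 and male in CD8 libraries. Same-numbered libraries correlated between -0.16 and 0.14 in their deviations from the group means. These values cannot tell whether a mouse gave a CD4 and a CD8 library under different numbers. The tests over all 21 libraries treat the libraries as separate mice. With the number as a replicate block, genes called went to 2274 against 2836 without it in CD4 cells, 2406 against 2996 in CD8 cells and 268 against 545 for the difference. The block called 1 receptor higher in CD4 cells (Klrg1), against 9.54% of all genes tested. In CD8 cells it called 5 lower (Klrc2 and Klra8 added), against 7.89% of all genes tested. It turned Klrb1c to -0.19 in CD4 cells, Klrd1 to -0.031 in CD8 cells and Klrg1 to -0.059 in the L-gp130 cell type ratio. Of 28 other values of the ratios to the NK-restricted sum (Ncr1 alone, or reads), 13 moved by more than the spread between libraries. Depth limits Klra8, Klre1 and Ncr1 most in CD4 cells, where single libraries held as few as 1, 4 and 7 reads.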
